A study of Mus musculus with 21 samples.

Results

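The genes described here are 43 genes of DNA replication and mitosis, chosen by name: 25 replication genes, counting their S-phase regulators, and 18 mitosis genes. A row was found for 42 of them (24 replication and 18 mitosis genes) among 43436 gene identifiers shared by the files of 21 mouse libraries. The RNA level of Cdt1 was not analysed here. RNA abundance was read as FPKM, a count of sequenced fragments scaled for transcript length and library size. The series followed mouse embryonic fibroblasts (MEF, from E13.5 embryos) through chemical reprogramming, in which small molecules and not transgenes turn somatic cells into pluripotent cells. There were 2 MEF libraries, 1 library each of intermediate cells at days 12, 20, 26 and 28, 2 libraries at day 16, and 7 of chemically induced pluripotent stem cells (CiPSC), each from a line of its own (named C1 to C3, then G1 with G3, and N4 with N6). The MEF, intermediate and CiPSC libraries all come from the reporter strain C57BL/6J-Tg(GOFGFP)11Imeg/RbrcxICR. The labels name no compound or dose for the intermediates and lines. The other groups were 2 libraries of embryonic stem cells (ESC, derived from E3.5 embryos; replicate 1 from the reporter strain, replicate 2 from C57BL/6 (B6)N) and 4 libraries of extra-embryonic endoderm (XEN) cells from wild-type ICR mice. The 2 CeXEN libraries were XEN lines derived from E3.5 embryos in stage 1 medium (VC6TFAE with 20 ng/ml bFGF). The 2 eXEN libraries came from a line received as a gift: replicate 1 was kept in stage 1 medium (VC6TF with 20 ng/ml bFGF) and replicate 2 in traditional XEN medium, so the eXEN replicates differ in medium. Where the labels name no separate culture or line, p-values measure only the spread between these libraries, which may be technical.

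A dividing cell copies its DNA once per cycle and then separates the copies. Before S phase, the origin recognition complex (Orc1 is a subunit) and Cdc6 load the Mcm2-7 helicase onto origins, and geminin (Gmnn) keeps origins from being loaded again. Cyclin E with Cdk2, helped by the phosphatase Cdc25a, starts synthesis, for which Rrm1, Rrm2, Tyms and Tk1 supply deoxynucleotides. Pcna is the sliding clamp, Pole the leading-strand polymerase, and Fen1 and Lig1 finish lagging-strand fragments. Transcription of many of these genes is driven by E2F factors such as E2f1. Genes of mitosis peak later: Cdk1 with cyclins A2, B1 and B2 drives entry, Plk1, Aurka and Aurkb are mitotic kinases, Bub1, Bub1b and Mad2l1 form the spindle checkpoint, and Cdc20 activates the complex that ends it. Many mitotic promoters hold a CHR element (cell cycle genes homology region) next to CCAAT boxes. Pluripotent mouse cells are known for short cycles with a large share of cells in S phase.

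Promoter letters differed between the replication and mitosis genes, and 5 stretches show what was counted. They are the 150 bases before the transcription start, 5′ to 3′ on the gene's strand, from RefSeq (GRCm38.p6). Capitals mark E2F-type letters in the replication genes and CHR letters or CCAAT boxes in the mitosis genes. Mcm6 is shown for its 3 E2F-type matches (chr1:128359706-128359855, minus strand), Cdc25a (chr9:109875429-109875578, plus strand) and Cdk2 (chr10:128705052-128705201, minus strand) for single ones, and Top2a (chr11:99024190-99024339, minus strand) and Kif11 (chr19:37376232-37376381, plus strand) for a CHR beside CCAAT boxes.
Mcm6: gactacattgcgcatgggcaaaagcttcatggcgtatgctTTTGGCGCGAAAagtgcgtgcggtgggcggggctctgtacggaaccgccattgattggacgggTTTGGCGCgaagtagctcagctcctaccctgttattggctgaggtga
Cdc25a: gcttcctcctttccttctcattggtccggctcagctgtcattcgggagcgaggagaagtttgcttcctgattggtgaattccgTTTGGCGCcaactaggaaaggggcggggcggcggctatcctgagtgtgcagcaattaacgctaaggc
Cdk2: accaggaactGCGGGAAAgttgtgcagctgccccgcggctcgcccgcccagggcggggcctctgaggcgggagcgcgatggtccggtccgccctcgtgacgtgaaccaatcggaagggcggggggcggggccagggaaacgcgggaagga
Top2a: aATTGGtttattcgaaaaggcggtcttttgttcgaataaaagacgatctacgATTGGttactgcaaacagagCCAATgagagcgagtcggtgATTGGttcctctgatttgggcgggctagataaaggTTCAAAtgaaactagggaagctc
Kif11: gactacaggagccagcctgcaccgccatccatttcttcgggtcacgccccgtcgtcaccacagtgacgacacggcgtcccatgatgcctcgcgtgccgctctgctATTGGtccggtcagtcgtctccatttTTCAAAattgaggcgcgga

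In Mcm6 the E2F-type matches begin 110, 106 and 47 bases before the start, and the first 2 overlap. The CHR of Top2a begins 23 bases and that of Kif11 19 bases before the start. Over the window of 250 bases before to 50 after the start, the E2F-type letters searched were TTTGGCGC, TTTCCCGC, TTTCGCGC and TTTGCCGC, the CHR was TTTGAA and the box CCAAT, each on both strands. A promoter was matched for 36 of the 43 genes, Cdt1 among them. E2F-type letters stood in 10 of 21 replication promoters (47.62%; Cdk2, Cdc25a, Cdc6, Cdt1, Mcm3, Mcm5, Mcm6, Mcm7, Orc1 and Lig1), in 1 of 15 mitosis promoters (6.667%; Cdk1) and in 2.605% of 27025 genes with such windows. CHR letters stood in 10 of 15 mitosis promoters (66.67%), 2 of 21 replication promoters (9.524%) and 20.23% of all genes. All 10 mitosis promoters with a CHR also held a CCAAT box, a pair found in 8.973% of all genes. A CCAAT box stood in 13 of 15 mitosis promoters, 12 of 21 replication promoters and 41.06% of all genes. In related lists, E2F-type letters stood in 10 of 36 promoters of other replication genes and CHR letters in 28 of 40 of other mitotic genes. A match is a description of letters, not of a bound site.

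Every one of the 42 genes was quantified in every library with status OK, so none is missing from any count below. Sequencing depth, read from what 1 fragment was worth in weakly expressed genes, ran from 0.403 (C3) to 1.58 (N4) times that of ESC replicate 1. The authors' own half-width of the 95% interval had a median of 6.33% of the FPKM over the members and libraries. The files of day 12, day 16 replicate 1, day 20 and day 26 mark 446 loci as LOWDATA and the other 17 files mark none, so the 2 day 16 libraries differ in this respect. Markers went with the labels: the summed FPKM of 8 pluripotency markers was at least 4330 in every ESC and CiPSC library and at most 638 elsewhere. That of 8 XEN markers was at least 911 from day 12 on and in the XEN lines, and at most 91.0 in the rest. The sum of 10 fibroblast markers was 2889 to 10605 in MEF, 253 to 487 at day 16 and 5.71 to 80.8 in CiPSC. That of 10 macrophage and blood markers was 60.1 to 133 in MEF and at most 19.3 elsewhere. Each library is a bulk sample, in which fewer dividing cells and less RNA per dividing cell cannot be told apart.

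The list medians of the replication and mitosis genes were highest in pluripotent cells and lowest in MEF replicate 2. The intermediates and XEN lines lay between these, and MEF replicate 1 lay within the range of the intermediates. By group mean the lowest group was MEF in 14 members, day 28 in 14, day 12 in 13 and day 20 in 1. The median log2(FPKM + 1) of the 24 replication genes was 5.26 and 4.14 in the MEF libraries, 5.18 at day 12, 5.45 and 5.85 at day 16, 5.21 at day 20, 5.06 at day 26 and 4.70 at day 28. It was 5.66 and 5.97 in CeXEN, 5.86 and 5.55 in eXEN, 6.26 and 6.46 in ESC, and 6.26 to 6.47 in the 7 CiPSC lines. That of the 18 mitosis genes was 5.77 and 4.77 in MEF, 5.23 at day 12, 5.61 and 6.09 at day 16, 5.79 at day 20, 5.76 at day 26 and 5.45 at day 28. It was 5.86 and 6.14 in CeXEN, 5.84 and 5.75 in eXEN, 6.77 and 6.54 in ESC, and 6.39 to 6.67 in CiPSC. In both lists the ESC and CiPSC libraries overlapped, and so did those of CeXEN and day 16 and those of eXEN and day 16, so the order within these pairs is within their spread. The MEF libraries were further apart in these medians than the replicates of any other group. MEF replicate 1 exceeded MEF replicate 2 in 42 of 42 members, by a median of 1.08 on the log2 scale, against 42.6% of all 16650 genes tested. Day 16 replicate 1 exceeded replicate 2 in 4 of 42 members, against 40.5% of all genes.

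**Figure D1:**
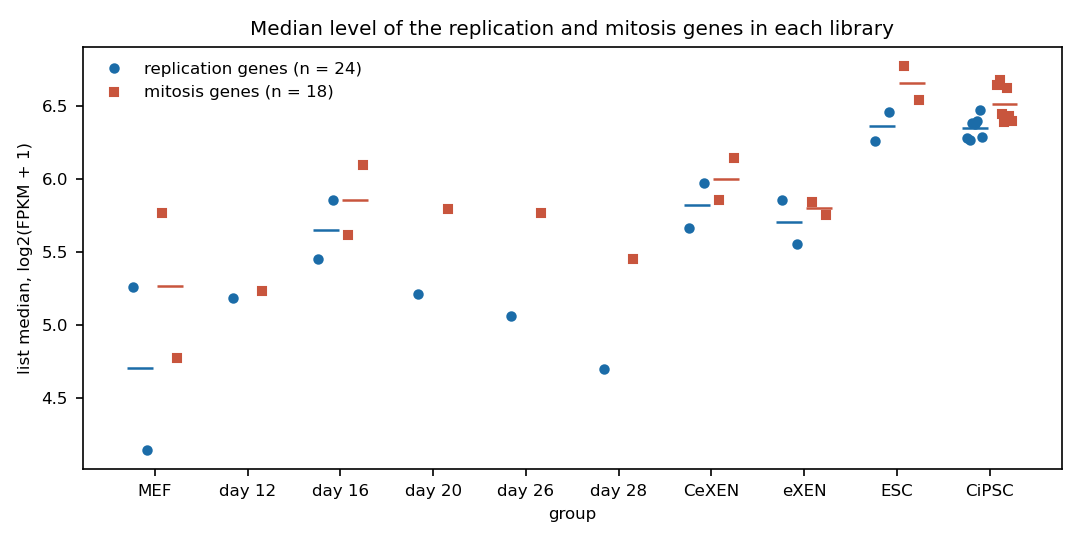
Median log2(FPKM + 1) of the replication genes (blue circles) and mitosis genes (red squares) in each of the 21 libraries, by group; horizontal lines are group means where a group has more than 1 library. All ESC and CiPSC medians lie above those of the other libraries, and the 2 MEF libraries lie far apart.

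**Figure D2:**
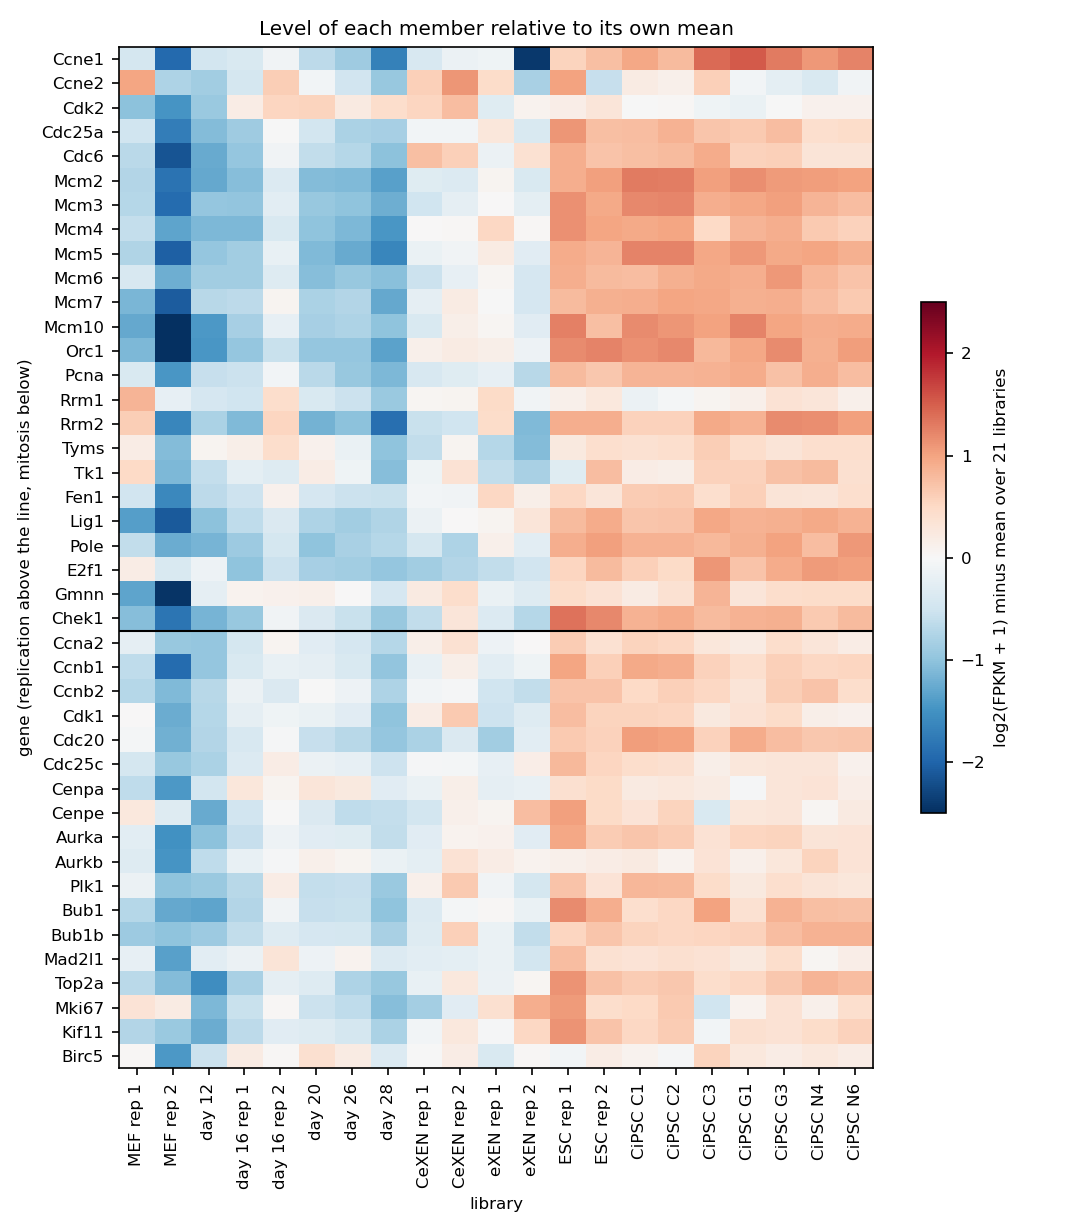
log2(FPKM + 1) of each of the 42 genes (rows) in each library (columns) minus that gene's mean over the 21 libraries; red is above and blue below the mean. The ESC and CiPSC columns are red for most replication genes, while Ccne2, Cdk2, Rrm1 and Mki67 do not follow that pattern.

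In 20 of the 42 genes all 9 ESC and CiPSC libraries were above all 12 others, and in 0 genes were they all below; this grouping was chosen after the values were seen. Of all genes tested, 12.4% had such a gap upward and 5.35% downward. The 20 were 14 of the 24 replication genes and 6 of the 18 mitosis genes (Ccnb1, Ccnb2, Cdc20, Aurka, Bub1 and Top2a). Orc1, the origin recognition subunit, had the widest range of FPKM as a ratio among the members, from 1.73 FPKM in MEF replicate 2 to 38.3 in ESC replicate 2. The gene lies at chr4:108579423-108614833 (mm10). Its lowest pluripotent library (28.2, C3) was well above its highest other library (18.1, CeXEN replicate 2). Cyclin E1 (Ccne1, chr7:38097984-38107534) ranged from 9.80 FPKM in eXEN replicate 2 to 164 in G1, with 53.0 as its highest value outside pluripotent cells. Mki67, the Ki-67 antigen often used to mark dividing cells, had no such gap: it was 24.6 and 22.5 in MEF, 25.7 and 36.7 in eXEN and 13.3 to 30.8 FPKM in the CiPSC lines, median 24.9.

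**Figure D3:**
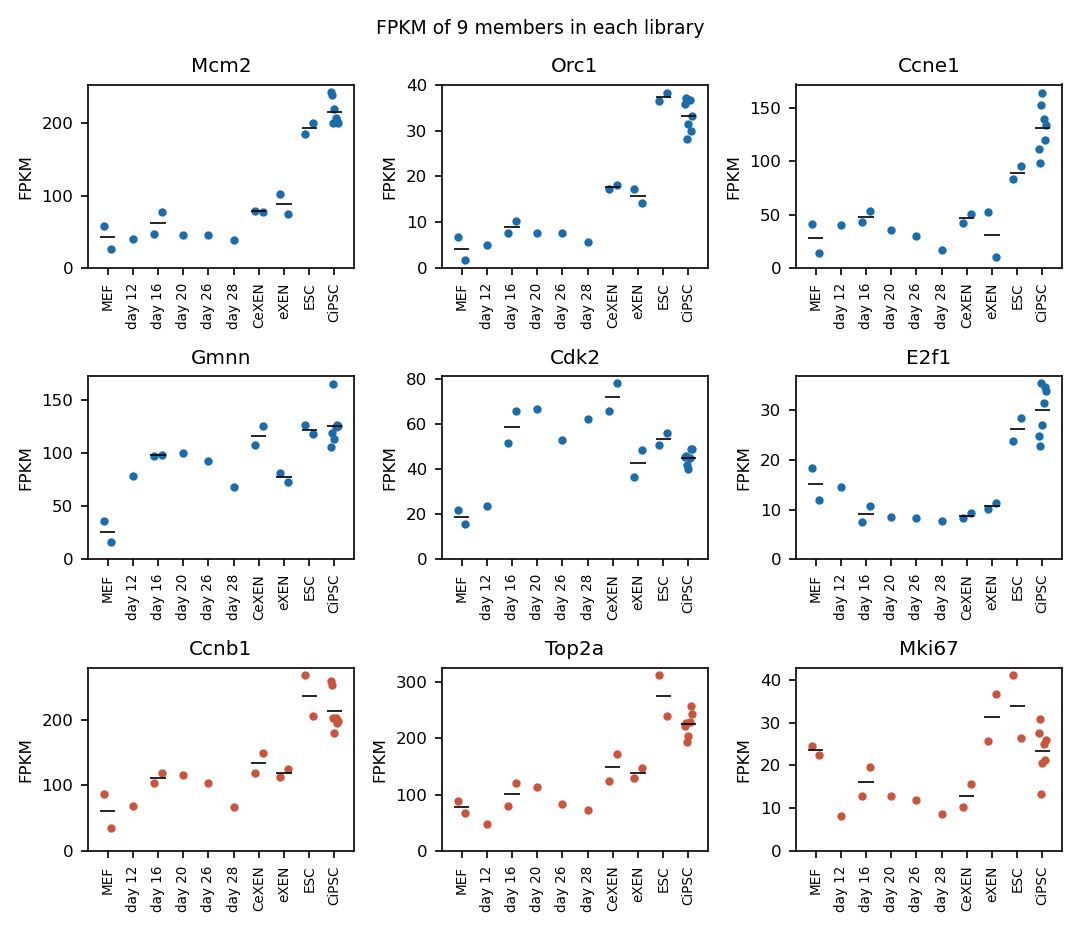
FPKM of 9 members in each library by group (linear axes from 0; blue, replication; red, mitosis; black lines, group means). Mcm2, Orc1, Ccne1, E2f1, Ccnb1 and Top2a are highest in ESC and CiPSC, Gmnn and Cdk2 are already high at day 16, and Mki67 is similar in MEF and CiPSC.

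CiPSC against day 16 asks how the lines differ from the XEN-like intermediates on the way to them. Of the 42 genes, 27 were higher in CiPSC and 0 lower (adjusted p under 0.05, limma with Benjamini-Hochberg adjustment over all 16650 genes), which is 64.3% of them against 22.2% of all genes higher and 25.9% lower. The calls took in 17 of 24 replication genes, with a median log2 change of 1.26, and 10 of 18 mitosis genes, with a median of 0.64. Over all genes tested the median change was -0.02.

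The largest changes were in the helicase gene Mcm2 and the origin gene Orc1, followed by E2f1. Mcm2 (chr6:88883475-88898780) was at 46.6 and 77.8 FPKM in the day 16 libraries and 199.9 to 243 FPKM in the CiPSC lines, median 207; the groups do not overlap, and the log2 change ± its standard error (SE) was 1.82 ± 0.24, adjusted p = 2.6e-05. Mcm6 was at 49.2 and 71.9 FPKM at day 16 and 149 to 192 FPKM in the CiPSC lines, median 169 (1.47 ± 0.21, adjusted p = 5.0e-05); values in this form below are log2 changes ± SE. The changes of Mcm3, Mcm4, Mcm5 and Mcm7 lay between 1.16 and 1.61, and all passed. Orc1 rose from 7.56 and 10.3 FPKM to 28.2 to 37 FPKM in the CiPSC lines, median 33.3 (1.79 ± 0.27, adjusted p = 0.000102). Mcm10, which helps to activate the loaded helicase, rose by 1.56 ± 0.27, adjusted p = 0.000316. Cdc6, the helicase loader, was at 10.1 and 19.6 FPKM and then 26.3 to 40.1 FPKM in the CiPSC lines, median 31.8 (1.14 ± 0.32, adjusted p = 0.00895). Other Orc genes were counted with the related genes below. The RNA level of Cdt1 was not analysed, and the loading genes that were analysed here, Orc1, Cdc6 and Mcm2 to Mcm7, all passed. Geminin, the inhibitor of this step, did not: it was at 97.1 and 98.4 FPKM at day 16 and 105 to 165 FPKM in the CiPSC lines, median 125 (0.35 ± 0.22, adjusted p = 0.218).

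Among the S-phase regulators, E2f1 was at 7.46 and 10.7 FPKM at day 16 and 22.7 to 35.5 FPKM in the CiPSC lines, median 31.4, without overlap (1.62 ± 0.21, adjusted p = 2.3e-05). Ccne1 was at 42.9 and 53 FPKM and 98.4 to 164 FPKM in the CiPSC lines, median 134 (1.42 ± 0.45, adjusted p = 0.0174). Its partner Cdk2 went the other way without passing, at 51.6 and 66.1 FPKM at day 16 and 40.1 to 49.1 FPKM in the CiPSC lines, median 45.2 (-0.37 ± 0.16, adjusted p = 0.0692). The other E cyclin, Ccne2, changed by -0.06 ± 0.48, adjusted p = 0.929. Cdc25a rose by 1.11 ± 0.29, adjusted p = 0.00571 and the checkpoint kinase gene Chek1 by 1.35 ± 0.26, adjusted p = 0.000633.

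At the fork, Pcna was at 109 and 151 FPKM at day 16 and 266 to 303 FPKM in the CiPSC lines, median 289.7 (1.16 ± 0.21, adjusted p = 0.000531). Pole (1.58 ± 0.19, adjusted p = 1.1e-05), Lig1 (1.34 ± 0.17, adjusted p = 1.8e-05) and Fen1 (0.69 ± 0.24, adjusted p = 0.0284) rose as well. The 4 deoxynucleotide genes did not pass. Rrm2, the small subunit of ribonucleotide reductase, differed widely between the day 16 libraries, 57.2 and 181 FPKM, against 186 to 284 FPKM in the CiPSC lines, median 239 (1.19 ± 0.50, adjusted p = 0.0654); the groups do not overlap. Its large subunit Rrm1 changed by 0.14 ± 0.26, adjusted p = 0.687, thymidylate synthase (Tyms) by 0.14 ± 0.25, adjusted p = 0.679 and thymidine kinase (Tk1) by 0.77 ± 0.34, adjusted p = 0.0769.

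Of the mitosis genes 10 passed and 8 did not. Top2a, the topoisomerase that untangles sister chromatids, was at 80.6 and 121 FPKM at day 16 and 193 to 258 FPKM in the CiPSC lines, median 227 (1.17 ± 0.19, adjusted p = 0.000148). The checkpoint kinase genes Bub1b (1.14 ± 0.21, adjusted p = 0.000453) and Bub1 (1.08 ± 0.22, adjusted p = 0.000937) rose, while Mad2l1 changed by 0.20 ± 0.23, adjusted p = 0.505. Cdc20 was at 78.8 and 103 FPKM and 156 to 218 FPKM in the CiPSC lines, median 179.8 (1.03 ± 0.25, adjusted p = 0.00392). Cyclin B1 (Ccnb1) was at 104 and 119 FPKM and 180.4 to 259.9 FPKM in the CiPSC lines, median 202 (0.92 ± 0.25, adjusted p = 0.00767). Its kinase Cdk1 was at 174 and 191 FPKM and 221 to 302 FPKM in the CiPSC lines, median 263; the groups do not overlap, but the change did not pass (0.51 ± 0.24, adjusted p = 0.0994). Ccna2 was at 52 and 74.7 FPKM and 80.5 to 104 FPKM in the CiPSC lines, median 87.4 (0.54 ± 0.19, adjusted p = 0.0292), and Plk1 at 44.2 and 82.2 FPKM and 86 to 129.7 FPKM in the CiPSC lines, median 97.7 (0.74 ± 0.27, adjusted p = 0.033). Kif11, the spindle motor, Ccnb2 and Aurka rose by 0.88 ± 0.20, 0.79 ± 0.14 and 0.84 ± 0.25. Aurkb was at 43.2 and 48.5 FPKM and 52.3 to 72.7 FPKM in the CiPSC lines, median 60.0 (0.38 ± 0.23, adjusted p = 0.191), and Mki67 at 12.8 and 19.7 FPKM and 13.3 to 30.8 FPKM in the CiPSC lines, median 24.9 (0.50 ± 0.28, adjusted p = 0.163). The centromere genes Cenpa and Cenpe, the phosphatase gene Cdc25c and survivin (Birc5) did not pass either, with changes from 0.04 to 0.44.

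Other genes of the same processes were counted too. Of 42 other replication genes 26 were higher and 1 lower (median 0.76), and of 47 other mitotic genes 29 were higher and 1 lower (median 0.71). Uhrf1, which recognises hemimethylated DNA behind the fork, changed most of the former, by 2.80 ± 0.29 (270.3 against 39.3 mean FPKM, adjusted p = 3.4e-06), and Espl1, the separase gene, of the latter, by 1.69 ± 0.25 (38.6 against 11.5 mean FPKM, adjusted p = 9.2e-05). Of 21 cell cycle transcription regulators, 6 were higher (28.6%) and 2 lower (9.52%), against 22.2% and 25.9% of all genes. Nfyb, a subunit of the CCAAT-binding factor, changed most of these, by 1.45 ± 0.21 (47.5 against 17.1 mean FPKM, adjusted p = 5.4e-05). Mybl2, the B-Myb gene of the complex that binds CHR elements, rose by 1.23 ± 0.33 (278 against 117 mean FPKM, adjusted p = 0.00752). With day 16 replicate 2 alone, the library whose file shares the form of the CiPSC files, the replication median was 0.92. With replicate 1 alone it was 1.58. Without day 16 replicate 1 the calls of Ccne1, Cdc25a, Cdc6, Fen1, Ccna2, Ccnb1, Cdc20, Aurka, Plk1 and Kif11 were lost; that of Ccne1 was lost without replicate 2 as well, and that of Plk1 without C1 or C2. In the same contrast 6 of 10 fibroblast markers and 8 of 8 XEN markers were lower, and their part in the change was not tested.

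Day 16 against MEF asks what had changed by the XEN-like stage. Of the 42 genes 11 were higher and 0 lower, 26.2% of them against 18.9% of all genes higher and 9.03% lower, a share near the background. The median log2 change was 0.72 for replication genes and 0.51 for mitosis genes, where that of all genes tested was 0.22. Of all calls 67.7% were higher in the deposited values, but 48.6% after quantile normalization and 46.9% after median-of-ratios scaling, under both of which 6 members were higher and 1 lower.

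Geminin (chr13:24751845-24761923) changed most, from 36.1 and 16 FPKM in MEF to 97.1 and 98.4 at day 16 (1.98 ± 0.28, adjusted p = 0.000128). Cdk2 was at 21.8 and 15.7 FPKM in MEF and 51.6 and 66.1 at day 16 (1.60 ± 0.20, adjusted p = 3.8e-05). Cenpa, the centromeric histone H3 variant, rose from 69.5 and 39.6 to 133 and 114 FPKM (1.21 ± 0.22, adjusted p = 0.000834). The groups do not overlap in any of the 3. Mcm7 (1.32 ± 0.29, adjusted p = 0.00337), Lig1 (1.25 ± 0.21, adjusted p = 0.000473), Mcm10 (1.40 ± 0.34, adjusted p = 0.00676) and Orc1 (1.10 ± 0.34, adjusted p = 0.0252) were higher, as were Chek1, Ccnb1, Ccnb2 and Mad2l1, by 0.65 to 1.00. The 6 genes higher under both scalings were Gmnn, Cdk2, Cenpa, Mcm7, Lig1 and Mcm10.

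Lower fitted values at day 16, none of which passed, were found for 5 members: E2f1, Mki67, Rrm1 (-0.36), Cenpe (-0.22) and Ccne2 (-0.02). E2f1 was at 18.4 and 12 FPKM in MEF and 7.46 and 10.7 at day 16, without overlap (-0.68 ± 0.26, adjusted p = 0.0665), and it was the 1 member called lower under either scaling, where its change reached -0.99. Mki67 was at 24.6 and 22.5 FPKM in MEF and 12.8 and 19.7 at day 16 (-0.54 ± 0.35, adjusted p = 0.288). In several other members the MEF and day 16 libraries overlapped. Mcm2 was at 58.5 and 26.8 FPKM in MEF against 46.6 and 77.8, Mcm6 at 68.4 and 37.8 against 49.2 and 71.9, and Pcna at 122 and 57.7 against 109 and 151. Rrm2 was at 191 and 39.4 FPKM in MEF against 57.2 and 181, the widest spread within both groups. Cdk1 was at 205 and 86.2 FPKM against 174 and 191, and Cdc20 at 101 and 44.6 against 78.8 and 103. Plk1 was at 65.7 and 35.7 FPKM against 44.2 and 82.2. Cdk1, Cdc20 and Plk1 did not pass. Ccnb1, at 86.4 and 35.1 FPKM against 104 and 119, passed, and its libraries did not overlap.

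Among related genes, 21 of 42 other replication genes and 17 of 47 other mitotic genes were higher and 0 lower. Rpa3, of the single-strand binding complex, rose by 2.18 ± 0.30 (88.6 against 18.8 mean FPKM, adjusted p = 0.000105), and Mybl2 by 3.10 ± 0.42 (117 against 15.8 mean FPKM, adjusted p = 8.0e-05). The count rests on single libraries. It rose without MEF replicate 1, fell without MEF replicate 2 or day 16 replicate 2, and changed little without day 16 replicate 1. Of the 11 calls 0 held under every alternative run for this comparison. Over these alternatives the change of Cdk1 ran from -0.17 to 1.07 and that of Rrm2 from -0.90 to 1.35. Fitted on these 4 libraries alone, without the spread of the other groups, the comparison called 0 members and 0 of all genes. In the same contrast 6 of 10 fibroblast markers and 7 of 8 macrophage and blood markers tested were lower, and their part was not tested.

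CiPSC against MEF spans both steps and shares its libraries with the comparisons above. Here 37 of 42 genes were higher and 0 lower, 88.1% against 34.3% of all genes higher and 21% lower, with medians of 1.80 for replication and 1.21 for mitosis genes and 0.25 for all genes. Calls over all genes were higher in 62.0% of cases as deposited, 53.1% after quantile normalization and 50.6% after median-of-ratios scaling. In the same contrast 10 of 10 fibroblast markers and 7 of 8 macrophage and blood markers tested were lower, and their part was not tested. The 5 members not called were Ccne2, Rrm1, Tk1, Cenpe and Mki67. Mcm10 changed by 2.97 ± 0.27, adjusted p = 6.1e-07, Orc1 by 2.89 ± 0.27, adjusted p = 7.6e-07 and Lig1 by 2.59 ± 0.17, adjusted p = 2.1e-08; Ccnb1 led the mitosis genes with 1.92 ± 0.25, adjusted p = 1.7e-05, followed by Bub1 with 1.66 ± 0.22, adjusted p = 1.7e-05. Geminin changed by 2.32 ± 0.22, adjusted p = 1.0e-06 and Cdk2 by 1.24 ± 0.16, adjusted p = 1.4e-05, beside 1.98 and 1.60 in day 16 against MEF, while Mki67, at 24.6 and 22.5 FPKM in MEF, changed by -0.04 ± 0.28, adjusted p = 0.921. Of these calls 28 held under every alternative run for this comparison, Ccne1, Mcm2 to Mcm7, Orc1 and Pcna among them. Mybl2 rose by 4.33 ± 0.33 (278 against 15.8 mean FPKM, adjusted p = 1.2e-07).

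CiPSC against ESC asks whether the lines match embryo-derived pluripotent cells. By limma 0 of 42 genes were called, with 1 (Kif11) at an unadjusted p under 0.05 (8.48% of all genes) and a smallest adjusted p of 0.533; of all genes 0.036% were higher and 0.024% lower. The medians were 0.01 for replication and -0.26 for mitosis genes. Kif11 was at 52.5 and 38.9 FPKM in ESC and 22.4 to 37.1 FPKM in the CiPSC lines, median 32.4 (-0.51 ± 0.20, adjusted p = 0.533). Mcm2, at 185 and 201 FPKM in ESC, changed by 0.16 ± 0.24 with a 95% interval of -0.35 to 0.67. For Ccne1, at 83.3 and 95.3 FPKM in ESC and below all 7 lines, the change was 0.54 ± 0.45, adjusted p = 0.804, so these libraries do not limit it to a small one. Ccne1 was the 1 member with every line above both ESC libraries, against 6.44% of all genes, and the 5 members Cdk2, Chek1, Cdc25c, Cenpa and Kif11 were below both in every line, against 7.68% of all genes. The 7 lines were close to each other: the coefficient of variation had a median of 10.5% over replication and 11.9% over mitosis genes, against 15.5% over 7102 genes with a CiPSC mean of at least 10 FPKM. Pcna varied least of the members (4.53%), and Ccne2 (26.1%) and Mki67 (24.4%) most. Mki67 was lowest in C3, the line with the shallowest library.

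eXEN against ESC compares the gift XEN line with embryonic stem cells. The groups also differ in strain, and the eXEN replicates in medium, so strain and cell type cannot be told apart here. Of the 42 genes 27 were lower in eXEN and 0 higher, 64.3% against 24.4% of all genes lower and 12.8% higher. Calls over all genes were higher in 34.5% of cases as deposited, 52.2% after quantile normalization (23 members lower) and 45.3% after median-of-ratios scaling (18 lower). The replication median was -1.03 and the mitosis median -0.83; that of all genes was -0.26. The sum of 10 fibroblast markers was at most 2.37 FPKM in eXEN and 5.03 in ESC.

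Chek1, the checkpoint kinase gene, was at 15.3 and 11.5 FPKM in eXEN and 51.8 and 46.6 in ESC (-1.81 ± 0.32, adjusted p = 0.000582). Ccne1 was at 52.5 and 9.8 FPKM in eXEN, the second value from traditional XEN medium, and 83.3 and 95.3 in ESC (-1.91 ± 0.56, adjusted p = 0.0157). Without eXEN replicate 2 the change of Ccne1 was -0.75 and did not pass. Of the replication genes that passed, Tyms and E2f1 came next. Tyms was at 36.6 and 28.4 against 72.8 and 81.5 FPKM (-1.23 ± 0.32, adjusted p = 0.00726), and E2f1 at 10.1 and 11.3 against 23.9 and 28.4 (-1.21 ± 0.26, adjusted p = 0.00235). In both, no eXEN library reached an ESC library. Pcna was at 139 and 98.5 against 276 and 256 FPKM (-1.17 ± 0.27, adjusted p = 0.00352), Mcm2 at 103 and 75 against 185 and 201 (-1.13 ± 0.30, adjusted p = 0.00838), and Mcm6 at 93.1 and 67.1 against 169.5 and 156 (-1.03 ± 0.26, adjusted p = 0.00618). All of Mcm2 to Mcm7, Mcm10 and Orc1 passed, with changes from -1.20 to -0.78. Fen1 (-0.08 ± 0.30, adjusted p = 0.87) overlapped, as did Rrm1, at 66.8 and 44.5 against 52.2 and 57.3 FPKM. Rrm2 was at 171 and 57.3 FPKM in eXEN, higher in stage 1 medium, against 234 and 235 (-1.23 ± 0.63, adjusted p = 0.14). Cdc6 was at 18.7 and 27.4 against 39.5 and 34.7 FPKM and Gmnn at 81.5 and 73.2 against 126 and 118; neither passed.

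The mitosis genes with the largest changes were Ccnb2, Cdc20, Bub1 and Cdk1. Ccnb2, a B-type cyclin, was at 47 and 42.7 FPKM in eXEN and 109 and 110.0 in ESC (-1.27 ± 0.17, adjusted p = 5.3e-05). Cdc20 was at 56.9 and 86.5 FPKM in eXEN and 165 and 157 in ESC (-1.19 ± 0.31, adjusted p = 0.0087). Bub1 was at 26.7 and 23.4 against 61.2 and 50.2 FPKM (-1.12 ± 0.27, adjusted p = 0.00487), Cdk1 at 142 and 163 against 350.5 and 301 (-1.09 ± 0.30, adjusted p = 0.0118), and Top2a at 129 and 148 against 312 and 239 (-0.98 ± 0.23, adjusted p = 0.00455). Ccnb1 was at 113 and 125 against 268 and 206 FPKM (-0.98 ± 0.31, adjusted p = 0.024). The groups were apart in each of these genes. Bub1b was at 40.0 and 28.9 against 64.9 and 73.4 FPKM (adjusted p = 0.00753). Aurkb was at 56 and 52.6 against 53.9 and 56.1 FPKM (-0.02 ± 0.29, adjusted p = 0.986) and Mki67 at 25.7 and 36.7 against 41.2 and 26.4 (-0.10 ± 0.35, adjusted p = 0.87), and Birc5 changed by -0.23 ± 0.33, adjusted p = 0.636. Ccna2 was at 65.1 and 70.9 against 111 and 93 FPKM and Plk1 at 68.3 and 53.3 against 119 and 91.4; neither passed.

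Of related genes, 23 of 42 other replication genes and 26 of 47 other mitotic genes were lower and 0 higher. Cenpm, a centromere protein gene, changed by -2.78 ± 0.26 (6.37 against 52.3 mean FPKM, adjusted p = 2.1e-06), and Pttg1, securin, by -1.99 ± 0.24 (34.3 against 139.7 mean FPKM, adjusted p = 2.4e-05). Among the regulators Nfyb, a subunit of the CCAAT-binding factor, changed by -1.51 ± 0.26 (17.8 against 51.9 mean FPKM, adjusted p = 0.000412), while E2f6, a repressive E2F, was higher by 1.67 ± 0.26 (34 against 9.76 mean FPKM, adjusted p = 0.000232). The count of lower members fell when eXEN replicate 2, ESC replicate 1 or ESC replicate 2 was left out. Pcna, E2f1, Chek1, Ccnb2 and Bub1 kept their call under every alternative run for this comparison; each of the other 22 lost it under at least 1, Mcm2 to Mcm7, Mcm10, Orc1, Tyms, Ccnb1 and Bub1b without eXEN replicate 2, Cdk1 and Cdc20 without eXEN replicate 1, and Top2a without ESC replicate 1.

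**Figure D4:**
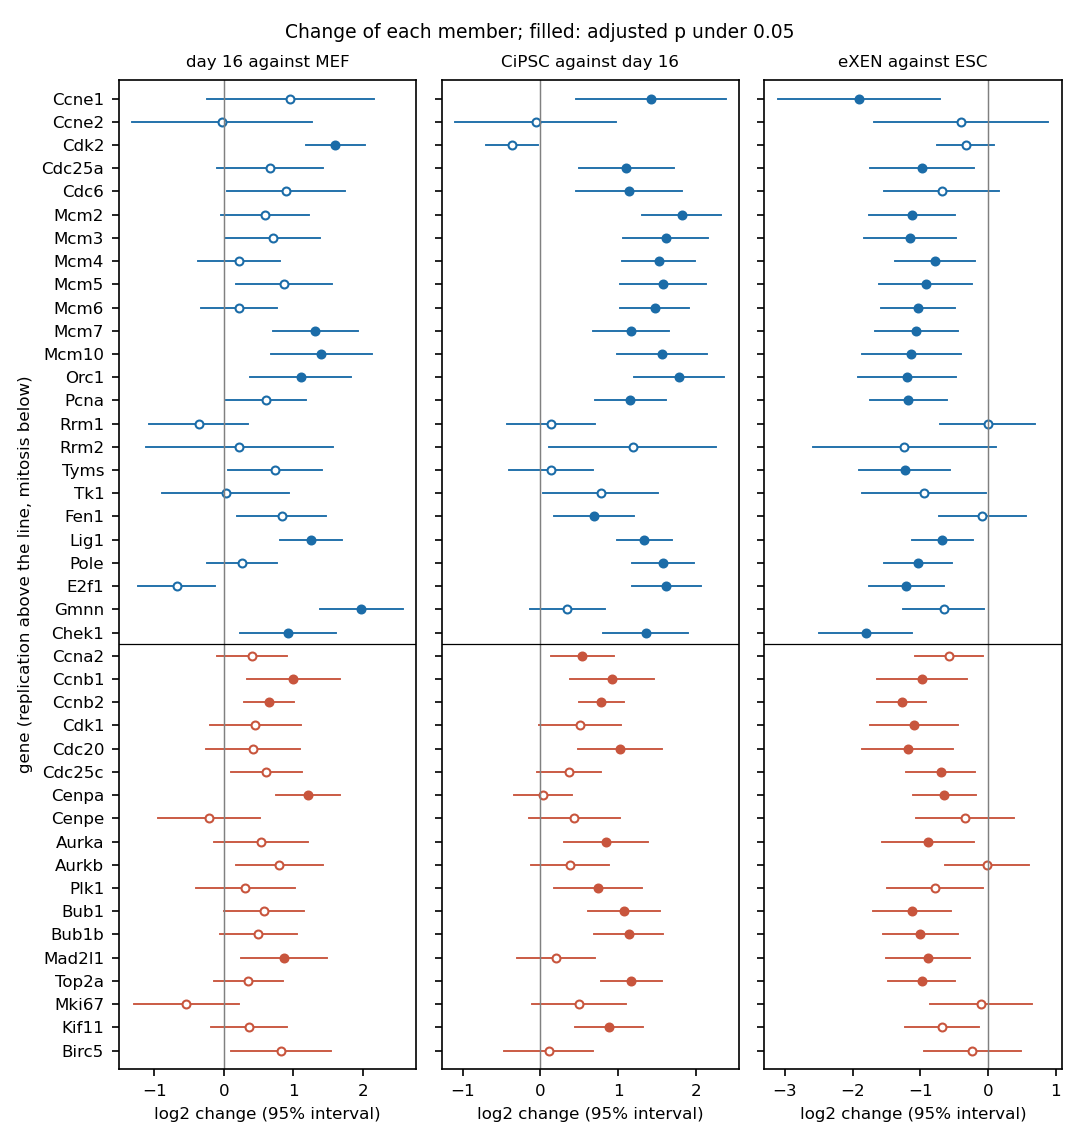
Log2 change of each of the 42 genes with its 95% interval in 3 comparisons (blue, replication; red, mitosis; filled circles passed at an adjusted p under 0.05). Most members lie right of 0 in CiPSC against day 16 and left of 0 in eXEN against ESC, and Gmnn and Cdk2 stand out in day 16 against MEF.

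Against eXEN, few members of the day 16 cells passed the test, which does not show equal levels. These groups differ in strain as well, and the eXEN replicates in medium, so strain and cell type cannot be told apart. By limma 1 gene was higher and 2 lower, against 17.8% and 4.75% of all genes; 8 of the 42 had an unadjusted p under 0.05, as did 35.2% of all genes. Tyms was higher at day 16, at 67.4 and 83.2 against 36.6 and 28.4 FPKM (1.19 ± 0.32, adjusted p = 0.0142). Mcm4 was at 26.8 and 45.2 against 85.4 and 60.5 FPKM (-1.02 ± 0.28, adjusted p = 0.0154) and Lig1 at 50.01 and 60.7 against 81.6 and 96.3 (-0.68 ± 0.21, adjusted p = 0.0308), both lower. The medians were -0.31 for replication and -0.09 for mitosis genes, where all genes had 0.23. Calls over all genes were higher in 78.9% of cases as deposited, 48.9% after quantile normalization (5 members lower) and 62.0% after median-of-ratios scaling (6 lower); Mki67, at 12.8 and 19.7 against 25.7 and 36.7 FPKM, was then among the lower. Without day 16 replicate 1 no member was called lower and the replication median was 0.023; without replicate 2, or without eXEN replicate 2, Tyms was not called. The fibroblast marker sum, 253 to 487 FPKM at day 16, was at most 2.37 in eXEN; its part was not tested.

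CeXEN against eXEN compares XEN lines derived in stage 1 medium with the gift line. One member, Cdk2, was higher, at 65.9 and 78.3 against 36.7 and 48.6 FPKM (0.75 ± 0.20, adjusted p = 0.0324), and 0 were lower, against 4.74% and 2.85% of all genes; 5 had an unadjusted p under 0.05, as did 21.3% of all genes. Calls over all genes were higher in 62.5% of cases as deposited, 47.0% after quantile normalization and 56.5% after median-of-ratios scaling, and under both scalings, and without CeXEN replicate 2 or eXEN replicate 1, the call of Cdk2 was lost. Mki67 was at 10.3 and 15.6 FPKM in CeXEN and 25.7 and 36.7 in eXEN, without overlap (-1.22 ± 0.35, adjusted p = 0.0502), and was called lower under either scaling. Cdk1 was at 232 and 324 against 142 and 163 FPKM (0.85 ± 0.30, adjusted p = 0.113), the reverse order. Ccne1 was at 42.3 and 50.8 FPKM in CeXEN, 52.5 in eXEN replicate 1 and 9.80 in eXEN replicate 2. In Cdc6 replicate 2 was the nearer, with 35.5 and 32.1 FPKM in CeXEN and 18.7 and 27.4 in eXEN replicates 1 and 2. Each eXEN medium is 1 library, and the stage 1 medium of eXEN (VC6TF) is not that of CeXEN (VC6TFAE). The part of medium was not tested.

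The day 12 and day 28 libraries had lower values than day 16 in most members. The day 12 library was below both day 16 libraries in 38 of 42 members, all 18 mitosis genes among them, against 27% of all genes. The day 28 library was below both in 36 of 42, against 34.3% of all genes. Ccnb1 was at 68.8 FPKM at day 12, 104 and 119 at day 16, 116 at day 20, 103 at day 26 and 67.4 at day 28. Cdk1 went from 125 to 174 and 191, 183, 168 and 102. Both mitotic genes stayed near their day 16 level to day 26 and were lower at day 28. Ccne1 was at 40.6 FPKM at day 12, 42.9 and 53 at day 16, 35.3 at day 20, 30.0 at day 26 and 16.8 at day 28. Pcna was at 107, 109 and 151, 100.3, 82.4 and 73, and Mcm2 at 40.0, 46.6 and 77.8, 45.6, 45.4 and 37.9. At day 20 Ccne1 and Pcna were below both day 16 libraries, as were 10 of 24 replication genes (41.7%), 1 of 18 mitosis genes (5.56%) and 30.9% of all genes; the difference between the lists was not tested. The replication median minus the mitosis median went from -0.05 at day 12 through -0.17 and -0.24 at day 16 to -0.59, -0.70 and -0.75 at days 20, 26 and 28. The same difference was -0.51 and -0.63 in MEF, -0.51 and -0.08 in ESC, and ran from -0.41 to 0.04 over the CiPSC lines, so libraries of 1 group can differ in it by much of the span seen over the days. Each of these days except day 16 is 1 library, so no day has a test of its own.

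A trend fitted over the 6 libraries called 0 members in either direction, as it did for 0% of all genes; 3 members had an unadjusted p under 0.05, a smaller share than the 20.1% of all genes, and the smallest adjusted p was 0.19. The 3 were Ccne1 (a change over 16 days of -1.20 ± 0.34), Tyms (-0.99 ± 0.36) and Pcna (-0.73 ± 0.26), all downward. The replication median over the trend was -0.32 and the mitosis median 0.08. The 4 libraries whose files mark LOWDATA loci end at day 26 and gave medians of 0.10 and 0.61, so the sign of the replication median turns on the other 2. Without the day 12 library the medians were -0.62 and -0.48. The sum of 10 fibroblast markers was 875 FPKM at day 12 and 11.5 at day 28. That of 8 pluripotency markers was 31.0 at day 12, 202 and 8.11 in day 16 replicates 1 and 2, 176 at day 20, 638 at day 26 and 359 at day 28. The part of either in the members' values was not tested.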

How the data were processed

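Total RNA was extracted with RNeasy Plus Mini kits and libraries were made with the NEBNext Ultra kit, per the labels' protocols. TopHat, Cufflinks and build mm10 are named in the submitters' processing notes; versions and the annotation release are not given in the sources used here. The deposited files give FPKM per gene, with the authors' confidence bounds; no read counts were used, so no count test was run. No source says that counting used strand, so reads of a gene and of an overlapping antisense gene cannot be told apart. The members and lists were chosen with earlier results of these data known. FPKM was taken as log2(FPKM + 1), keeping 16650 genes with at least 1 FPKM in at least 2 libraries. One limma (3.58.1, R 4.3.3) fit with a trended prior held all 21 libraries, with 1 coefficient per group and 11 residual degrees of freedom; p-values were adjusted by Benjamini-Hochberg over all genes. A change is a difference of group means on the log2(FPKM + 1) scale, which understates changes of low genes. The trend over days used 6 libraries and 4 residual degrees of freedom. Genes named are the members (16 always by library, and up to 6 called replication and 6 called mitotic genes with the largest change per comparison) and, from the related lists, the 2 largest called. The scripts were tested on simulated data. Promoter letters were counted in the RefSeq table of GRCm38.p6.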

Additional observations from a re-analysis of the deposited data

Results flagged for a closer look

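Among the 7 CiPSC lines, C3 stood apart from the other 6 in 2 of the 44 values examined, where chance alone marks about 1 group in 20. Gmnn was at 165 FPKM in C3 and 105 to 126 in the other lines. Tyms was at 94.0 FPKM in C3 and 76.4 to 83.1 in the other lines. The C3 library was the shallowest, at 0.403 times the depth of ESC replicate 1.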

How the results depend on the processing

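Sequencing depth is known only as a ratio between libraries, and with 2 libraries in most groups 1 library can decide a call. The call counts over the 42 members and the medians of the 2 lists kept their size under most settings. Of the changes of single members, 2972 values kept their side of the threshold, 31 gained and 182 lost a call, and 0 changed direction with a call. The 2972 include members that were not called in the main fit. Fewer calls held under every setting: 0 of 11 for day 16 against MEF and 16 of 27 for CiPSC against day 16. The numbers were 28 of 37 for CiPSC against MEF and 5 of 27 for eXEN against ESC. They were 0 of 3 for day 16 against eXEN and 0 of 1 for CeXEN against eXEN. In the exceptions below the cause was not tested. For day 16 against MEF, quantile normalization and median-of-ratios scaling each gave 6 members higher and 1 lower, a minimum change of 1 gave 7 higher, and a fit of only the 2 groups gave 0, where fewer libraries estimate the spread. For day 16 against eXEN the lower members were 5 (quantile), 6 (median-of-ratios), 1 (minimum change) and 0 (2 groups, with 0 higher). For CeXEN against eXEN, 1 member was lower with a pseudocount of 0.1, with FPKM of at least 5, under both scalings and with status OK in every library; 0 were higher under both scalings, the minimum change and the 2-group fit; the mitosis median was -0.16 after quantile normalization. For eXEN against ESC, median-of-ratios scaling gave medians of -0.81 (replication) and -0.60 (mitosis), the minimum change 17 lower members and the 2-group fit 16. For CiPSC against day 16 the 2-group fit called 1 member lower. The 4 day libraries with LOWDATA loci, a subset chosen after seeing the data, gave trend medians of 0.10 (replication, reversed) and 0.61 (mitosis). Leaving out 1 library at a time gave these ranges: day 16 against MEF, 5 to 26 higher and 0 to 1 lower; CiPSC against day 16, 17 to 28 higher and a replication median of 0.92 to 1.58; eXEN against ESC, 12 to 22 lower and -1.25 to -0.81; day 16 against eXEN, 0 to 2 higher, 0 to 4 lower and -0.70 to 0.023 (reversed without day 16 replicate 1); CeXEN against eXEN, 0 to 2 higher and -0.17 to 0.29; trend, -0.62 to -0.071 for replication and -0.48 to 0.47 for mitosis. The difference of replicate 1 from replicate 2 was hardly correlated between groups over all genes (r from -0.12 to 0.05). These differences also hold medium (eXEN), strain (ESC) and file form (day 16), so r cannot decide whether libraries of a number share a batch. With the replicate block 10 members were higher in day 16 against MEF and 27 lower in eXEN against ESC. With crossed numbers in the replicate block, day 16 against eXEN had 1 member higher and 3 lower. Over all genes, the counts that moved by more than 1.5 times were these. Day 16 against MEF had 2311 (quantile) and 2385 (median-of-ratios) lower, 0 in the 2-group fit, and 2100 higher and 866 lower without day 16 replicate 1. Day 16 against eXEN had 1738 higher and 1818 lower (quantile), 1471 lower (median-of-ratios), 527 lower (minimum change), 546 and 57 (2 groups), 416 lower without day 16 replicate 1, and 1678 and 485 without eXEN replicate 2. CiPSC against day 16 had 2162 and 2823 (minimum change) and 2085 higher without day 16 replicate 1, and CiPSC against MEF 3620 higher (minimum change). eXEN against ESC had 1126 higher (2 groups), and 2484 and 2701 lower without eXEN replicate 2 and ESC replicate 2. CeXEN against eXEN had 0 in the 2-group fit, 1706 higher without CeXEN replicate 1, 303 and 265 without CeXEN replicate 2, and 329 and 262 without eXEN replicate 2. CiPSC against ESC had 0 to 87 lower and up to 35 higher. The trend had 377 higher and 936 lower in a fit of all 21 libraries and 2 lower with the filter applied within the 6.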

Other observations

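Other genes of the same processes gave values not described above. Ticrr, which helps load the initiation factors of replication, was 2.46 ± 0.45 (34.8 against 4.85 mean FPKM, adjusted p = 0.000502) in CiPSC against day 16 and 2.95 ± 0.45 (34.8 against 3.22 mean FPKM, adjusted p = 8.0e-05) in CiPSC against MEF. Dna2, a nuclease and helicase of fragment processing, was 3.07 ± 0.41 (25.5 against 2.61 mean FPKM, adjusted p = 2.3e-05) in CiPSC against MEF. Ccnf, the F-box cyclin, was 1.88 ± 0.29 (55.5 against 15.8 mean FPKM, adjusted p = 0.000242) in day 16 against MEF, and Spc24, a kinetochore subunit, 1.88 ± 0.28 (41.4 against 10.6 mean FPKM, adjusted p = 0.000194). Dlgap5, a spindle protein gene, was -1.49 ± 0.34 (30.2 against 86.8 mean FPKM, adjusted p = 0.0062) in day 16 against eXEN. All values are log2 changes ± SE from limma, adjusted over all genes. These genes were chosen by size of change from the related lists.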
